A study of Mus musculus with 2 samples.

Results

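Pax3, Pax7, Lbx1, Six4, Eya1 and Eya2 form a set of 6 transcription factors and cofactors that act early in the muscle lineage of the limb. They were chosen by name, as the rows of both count matrices that carry these 6 symbols, out of 32285 genes in each matrix. Single-cell RNA sequencing was done on limb skeletal muscle tissue of wild-type C57Bl/6 mouse embryos of 2 ages named by embryonic day, E12.5 (the earlier age) and E15.5 (the later age). Forelimbs and hindlimbs were pooled in each library, there was 1 library per age, and no group carried an engineered allele or received an agent. How many embryos were pooled, and of which sex, is not given in the labels used here. With 1 library per age no difference between the ages has a replicate check, so no test is reported, and the 95% intervals given below cover counting error only.

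Muscle precursors of the limb leave the somites, migrate into the limb bud and there either divide or differentiate. PAX3 is a paired-domain factor needed for that migration, and its close relative PAX7 marks the progenitors that later build foetal muscle and the satellite cells of the adult. LBX1 is a homeobox factor of the migrating precursors. SIX4 binds DNA through a homeodomain at MEF3 sites, EYA proteins are coactivators of it and also carry phosphatase activity, and DACH proteins are further cofactors of the same network. PAX3 has a separate role in the neural crest, where it acts in the cells that give rise to melanocytes.

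The MEF3 motif, searched as TCAGGTTTC on both strands, is shown because it is the site that SIX4 is known to bind in the Myog promoter. In the RefSeq promoter windows of mouse build GRCm38.p6, which run from 250 bases before to 50 bases after each start, it was present in 141 of 32851 windows (0.429%). Of the 6 genes, Pax7 and Six4 were in that table, and a match was found for Six4 only. Among the 24 partner, target and muscle genes listed for comparison, 19 were in the table and 1 of them, Myog, held the motif. The 30 bases around each match follow, 5′ to 3′ on the strand of the gene, with the motif in capitals.
Myog: agaggggggcTCAGGTTTCtgtggcgttgg
Six4: tggcctggggGAAACCTGAtcggccagatc
The Myog stretch lies at chr1:134289910-134289939 on the plus strand, with the motif 84 to 76 bases upstream of the start. The Six4 stretch lies at chr12:73113325-73113354 on the minus strand, with the motif in reverse orientation 99 to 91 bases upstream of 1 of the 2 RefSeq starts of Six4. The GENCODE span of Six4 starts further upstream, so that this stretch falls within the annotated gene. A match describes letters and does not show binding.

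In GRCm38 coordinates of the GENCODE vM21 annotation, Pax3 (ENSMUSG00000004872) spans chr1:78101267-78197134 and Eya1 (ENSMUSG00000025932) spans chr1:14168954-14310235, both on the minus strand. Pax7 (ENSMUSG00000028736) lies at chr4:139737062-139833528, Lbx1 (ENSMUSG00000025216) at chr19:45232684-45235812 and Six4 (ENSMUSG00000034460) at chr12:73099609-73113456, all on the minus strand. Eya2 (ENSMUSG00000017897) lies at chr2:165595032-165771727 on the plus strand. All 6 are protein-coding. Eya1 shares its strand with an overlapping unclassified model, Gm37444, and whether the overlap affected its counts was not tested.

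The deposited matrices held 12941 barcodes with a median of 2384 UMIs at the earlier age and 5780 barcodes with a median of 7332.5 UMIs at the later age. A UMI marks 1 captured RNA molecule. After filters, 11001 and 3916 cells were kept. Clusters were named from marker genes that included none of the 6, which gave 621 muscle-like cells at the earlier age and 400 at the later age. Mesenchyme-like cells numbered 8298 and 1990, cartilage-like cells 1147 and 581, tendon-like cells 473 and 149, endothelial-like cells 130 and 151, and immune-like cells 11 and 84. The 11 muscle markers summed to 11548 CPM (UMIs of a gene scaled to the UMI total of the class) in muscle-like cells against 115.5 CPM in mesenchyme-like cells at the earlier age, and to 5591 against 79.3 CPM at the later age. Muscle-like cells had a median of 3757 UMIs at the earlier age and 14319 at the later age, so that shares of cells with a UMI are also given after each cell was thinned to 2000 UMIs. The libraries had 17 barcode strings in common.

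Pax7, Lbx1 and Pax3, the DNA-binding factors of the migrating and dividing precursors, were found mostly in the muscle-like cells, but most Pax3 UMIs of E15.5 lay outside that class. Pax7 was at 112 CPM (95% interval 99.7 to 126, 289 UMIs) in muscle-like cells at the earlier age and at 116 CPM (107 to 124, 716 UMIs) at the later age. Its log2 ratio of E15.5 over E12.5 was 0.043 (-0.16 to 0.25), and its level at the later age was within counting error of that at the earlier age. Lbx1 was at 24.5 CPM (18.8 to 31.3) early and 21.5 CPM (18.0 to 25.5) late, a log2 ratio of -0.19 (-0.63 to 0.27). The intervals of both ages overlapped for Pax7 and for Lbx1.

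Pax3 was at 17.9 CPM (13.1 to 23.8, 46 UMIs) in muscle-like cells at the earlier age and at 3.23 CPM (1.97 to 4.99, 20 UMIs) at the later age. The E15.5 level was 5.53-fold lower, a log2 ratio of -2.47 (-3.30 to -1.68), and the intervals of the ages did not overlap. Set against Pax7 in the same cells, Pax3 made up 13.7% (10.2 to 17.9) of the UMIs of the pair at the earlier age and 2.72% (1.67 to 4.17) at the later age. A single muscle-like barcode held 7 of the 20 Pax3 UMIs of E15.5. That barcode had 28115 UMIs, of which 55 were Myog, 6 Sox10 and 0 Pax7. Sox10 is a gene of Schwann cells and their neural crest precursors. Without the 9 muscle-like cells of E15.5 that held at least 5 UMIs of Schwann or melanocyte markers, Pax3 was at 2.23 CPM (1.19 to 3.81), and without 3 such cells at E12.5 it was at 17.6 CPM (12.8 to 23.5). The 9 cells of E15.5 held 7 Pax3 UMIs, all in that single barcode. Erbb3, a Schwann marker used here, was also among the leading genes of a muscle-like cluster of E12.5.

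Of all Pax7 UMIs in kept cells, 90.6% (86.8 to 93.6) lay in muscle-like cells at the earlier age and 95.6% (93.9 to 96.9) at the later age, while these cells made up 5.64% and 10.2% of the kept cells. For Lbx1 the shares were 90.0% (80.5 to 95.9) and 90.5% (84.5 to 94.7). For Pax3 they were 71.9% (59.2 to 82.4) and 22.5% (14.3 to 32.6).

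**Figure D1:**
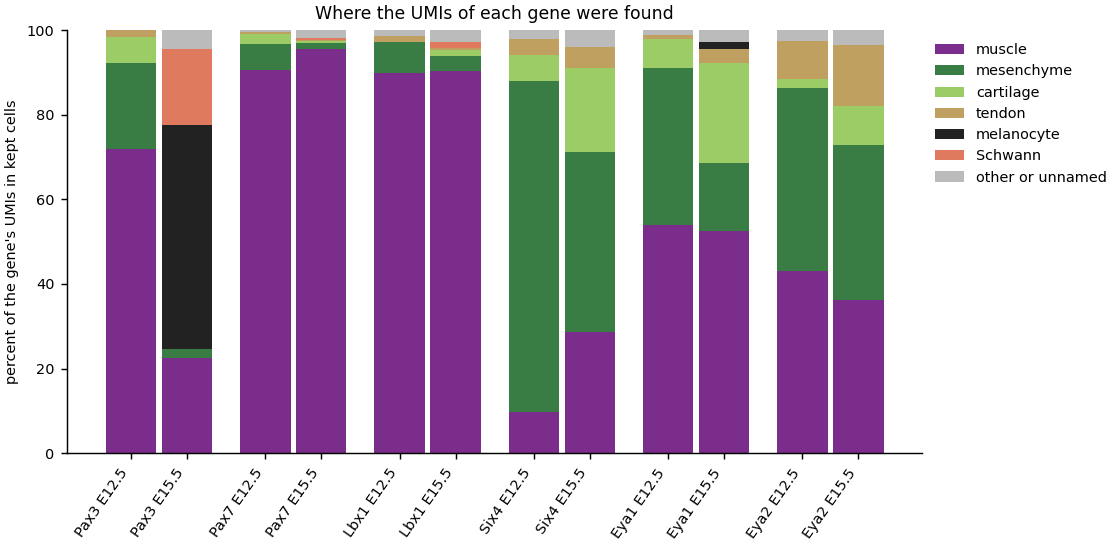
Percent of the UMIs of each gene (vertical axis) found in each cell class, for both libraries, with one stacked bar per gene and age. The muscle-like part was 90.6% and 95.6% for Pax7 and fell short of a majority for Six4 at both ages, and most Pax3 UMIs of E15.5 were in melanocyte-like and Schwann-like cells.

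Melanocyte-like cells held most of the Pax3 UMIs outside muscle at E15.5. There were 11 such cells, named from melanocyte markers, and all 11 had a Pax3 UMI. Together they held 47 of the 89 Pax3 UMIs of that library, at 425 CPM (313 to 566). The 81 Schwann-like cells held 16 Pax3 UMIs in 6 cells, at 17.0 CPM (9.71 to 27.6). Pax7, Lbx1, Six4 and Eya2 had no UMI in the melanocyte-like cells, which at this depth allows up to 27.2 CPM. At E12.5 no cluster was named melanocyte or Schwann. Dct, a melanin synthesis gene, was found in 5 kept cells of that library, and 2 of these had a Pax3 UMI. Pmel, another melanocyte marker, was found in 21 kept cells, 2 of them with a Pax3 UMI. Sox10 was found in 84, and 0 of these had a Pax3 UMI.

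Eya1 and Eya2, the coactivators, were both higher in muscle than in mesenchyme, and both were lower in muscle at E15.5. Eya1 was at 85.5 CPM (74.6 to 97.6, 220 UMIs) in muscle-like cells at the earlier age and at 15.4 CPM (12.4 to 18.8, 95 UMIs) at the later age. The E15.5 level was 5.57-fold lower, a log2 ratio of -2.48 (-2.84 to -2.12). Eya2 was at 40.4 CPM (33.0 to 49.0) early and 12.1 CPM (9.53 to 15.2) late, which was 3.33-fold lower at E15.5 (log2 ratio -1.74, interval -2.19 to -1.30). For both genes the intervals of the ages did not overlap. Eya1 made up 67.9% (62.5 to 73.0) of the UMIs of the Eya1 and Eya2 pair in muscle-like cells at the earlier age and 55.9% (48.1 to 63.5) at the later age.

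Outside muscle, Eya1 and Eya2 had their highest levels in different classes and clusters. Eya1 in mesenchyme-like cells was at 7.53 CPM (6.38 to 8.83) early and 1.40 CPM (0.936 to 2.01) late, a log2 ratio of -2.43 (-3.06 to -1.85), close to its ratio in muscle. In cartilage-like cells Eya1 was at 8.83 CPM (5.87 to 12.8) early and 9.47 CPM (6.85 to 12.8) late, where the counts left no difference between the ages detectable. The 11 melanocyte-like cells of E15.5 held 3 Eya1 UMIs in 3 cells, at 27.2 CPM with a wide interval (5.60 to 79.4) that took in the muscle level. Eya2 in mesenchyme-like cells was at 5.15 CPM (4.21 to 6.24) early and 3.66 CPM (2.89 to 4.58) late, a log2 ratio of -0.49 (-0.94 to -0.052). In tendon-like cells Eya2 was at 24.8 CPM (15.55 to 37.6) early and 19.7 CPM (13.3 to 28.2) late, the class with its highest level after muscle at E12.5. At E15.5 the tendon-like level of Eya2 was above the muscle-like one, although the lower bound of 13.3 CPM lay below the upper muscle bound of 15.2 CPM.

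Within the mesenchyme, Eya1 at E12.5 ranged over the 13 clusters of at least 50 cells from 0 UMIs to 38.5 CPM (27.7 to 52.0), and the highest level was in a cluster led by Gria2 and Isl1. At E15.5 its highest level among the 3 cartilage-like clusters of that size was 24.3 CPM (15.6 to 36.2), in a cluster led by Mia and Cytl1. Eya2 at E15.5 reached 13.9 CPM (7.19 to 24.3) in a mesenchyme-like cluster of 69 cells led by Aldh1a2 and Cxcl13.

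Six4 was the one gene of the set that was as high in mesenchyme as in muscle at E12.5. It was at 67.6 CPM (57.9 to 78.4) in muscle-like cells and 69.3 CPM (65.7 to 73.1) in mesenchyme-like cells, and at 78.9 CPM (61.5 to 99.7) in tendon-like cells. Cartilage-like cells were lower, at 35.0 CPM (28.8 to 42.2). At E15.5 Six4 was at 28.6 CPM (24.5 to 33.1) in muscle-like, 26.9 CPM (22.3 to 32.1) in cartilage-like, 20.4 CPM (13.9 to 29.0) in tendon-like and 12.7 CPM (11.2 to 14.3) in mesenchyme-like cells. Neighbours in this order had overlapping intervals, the last pair only just, with a mesenchyme-like upper bound of 14.3 CPM against a lower bound of 13.9 CPM for tendon. Endothelial-like cells were at 12.9 CPM (5.57 to 25.4, 8 UMIs) at the earlier age and 3.35 CPM (1.35 to 6.91, 7 UMIs) at the later age.

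The log2 ratio of E15.5 over E12.5 for Six4 was -1.24 (-1.55 to -0.93) in muscle and -2.45 (-2.65 to -2.26) in mesenchyme, with intervals that did not overlap. In cartilage it was -0.38 (-0.77 to 0.0019), but the classes did not hold the same clusters at both ages. A cluster with Gdf5 and Scrg1 among its leading genes was named mesenchyme at E12.5 and cartilage at E15.5, where it held 288 of the 581 cartilage-like cells and had the most Six4 of the 3 large clusters, at 34.0 CPM (26.3 to 43.3). Without such clusters, an alternative chosen after seeing the data, the ratio of Six4 was -0.70 (-1.19 to -0.23) in cartilage and -2.35 (-2.54 to -2.15) in mesenchyme. Only 9.73% (8.39 to 11.2) of the Six4 UMIs of E12.5 lay in muscle-like cells, against 78.2% in mesenchyme-like cells. At E15.5 these shares were 28.7% and 42.6%. Over the 13 mesenchyme-like clusters of E12.5 with at least 50 cells, Six4 ranged from 44.3 CPM (31.7 to 60.4) to 104.5 CPM (92.1 to 118), with the highest level in a cluster led by Gdf5 and Sfrp2. GDF5 is a growth factor of the forming joints. Over 9 such clusters of E15.5 it ranged from 0.981 CPM, a single UMI, to 19.9 CPM (15.02 to 25.8).

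**Figure D2:**
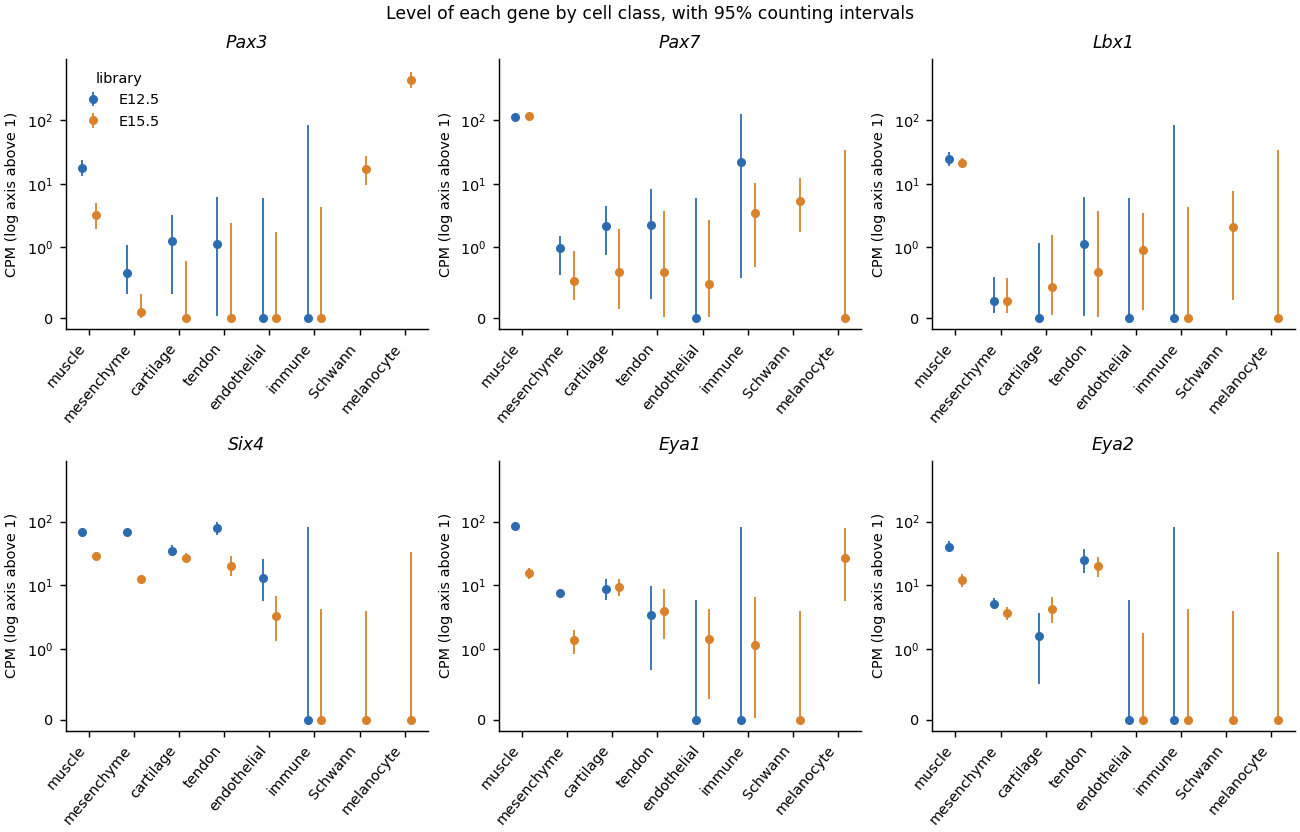
Level of each gene in CPM (vertical axis, logarithmic above 1 and linear below) in 8 cell classes (horizontal axis) of the E12.5 and E15.5 libraries, with points for summed UMIs and bars for 95% counting intervals. Pax7 and Lbx1 stood out in muscle at both ages, Pax3 was highest in the melanocyte-like cells at 425 CPM, and Six4 was spread over muscle, mesenchyme, cartilage and tendon.

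Measured against mesenchyme of the same library, 5 of the 6 genes were at least 2-fold higher in muscle at E12.5, where 6.20% of 14473 genes were. At E15.5 all 6 of 6 were, where 8.18% of 13948 genes were. The median log2 ratio of muscle over mesenchyme was 4.15 for the 6 genes at E12.5 and -0.29 for all genes. It was 4.26 and -0.34 at E15.5. Pax7 had log2 ratios of 6.82 (6.17 to 7.56) at the earlier age and 7.77 at the later age, Lbx1 of 6.63 and 6.48, and Pax3 of 4.79 and 5.07. Those of Eya1 were 3.50 and 3.46, and those of Eya2 were 2.97 and 1.73. Six4 had -0.036 (-0.27 to 0.19) at the earlier age and 1.17 at the later age. With classes taken from marker UMIs of each barcode in place of clusters, 230 of the 400 clustered muscle-like cells of E15.5 were counted as mesenchyme, and the E15.5 ratio of Pax7 was then -1.07. Pax3 and Eya1 fell short of 2-fold there as well, at 0.19 and 0.50. Six4 at E15.5 fell short of it at clustering resolution 0.5, with 0.88, and with joint clustering of both libraries, with 0.87. Scaled so that the median gene did not differ, the E12.5 ratio of Six4 was 0.26, on the other side of 0.

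Endothelial-like and immune-like cells held few UMIs of the set, most of them of Six4 in the endothelial-like cells (given above). At E12.5 Pax3, Pax7, Lbx1, Eya1 and Eya2 had 0 UMIs in the 130 endothelial-like cells, which allows up to 4.84 CPM. At E15.5 the 151 endothelial-like cells held 1 UMI of Pax7, 2 of Lbx1 and 3 of Eya1, and none of Pax3 and Eya2. The 84 immune-like cells of E15.5 held 3 UMIs of Pax7 and 1 of Eya1. The 11 immune-like cells of E12.5 held 1 UMI of Pax7 and none of the other 5 genes, but there a count of 0 allows up to 66.8 CPM, so that class says little at that age. Mesenchyme-like cells held Pax7 UMIs in 0.217% of cells at the earlier age (median 2251.5 UMIs) and in 0.553% at the later age (median 9532.5 UMIs), and endothelial-like cells in 0 of 130 and in 1 of 151. Whether these are cells or stray RNA was not tested.

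Between the ages, 4 of the 6 genes were at least 2-fold lower in muscle at E15.5 and 0 were at least 2-fold higher. Among all 11302 genes tested in muscle, 19.0% were at least 2-fold lower and 4.49% at least 2-fold higher, together 23.5%. The median gene had a log2 ratio of -0.37 in muscle and -0.38 in mesenchyme. Relative to it, Pax7 was higher by 0.41 and Lbx1 by 0.18, Six4 was lower with -0.88, and Pax3, Eya1 and Eya2 were lower with -2.10, -2.11 and -1.37. Lbx1 changed sign between the scalings, and Six4 fell short of 2-fold relative to the median gene. With classes from marker UMIs of each barcode, Six4 and Eya2 fell short of 2-fold as well, at -0.81 and -0.31.

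**Figure D3:**
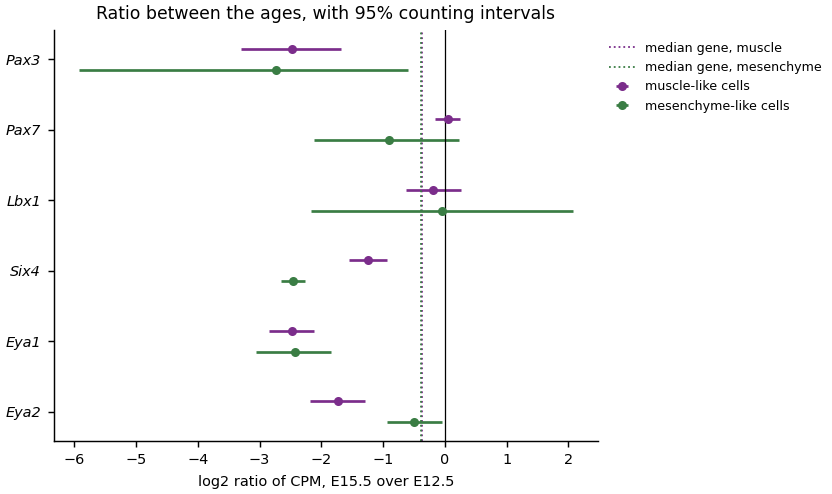
Log2 ratio of CPM at E15.5 over E12.5 (horizontal axis) for each gene in muscle-like and mesenchyme-like cells, with 95% counting intervals as bars and the median gene of each class as a dotted line. In muscle Eya1 and Pax3 lay near -2.5 and Pax7 near 0, and Six4 was lower in mesenchyme than in muscle.

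The shares of muscle-like cells with a UMI depended on depth. For Pax7 the share was 31.1% of 621 cells at the earlier age and 62.3% of 400 cells at the later age in the full counts, but 19.9% (16.7 to 23.4) and 18.8% (15.1 to 23.1) after thinning to 2000 UMIs. Thinning left out 52 muscle-like cells at the earlier age and 7 at the later age. For Lbx1 the full shares were 9.34% and 27.0%, and the thinned ones 4.22% and 3.31%. The thinned differences of E15.5 minus E12.5 were -1.03 percentage points (-6.00 to 4.14) for Pax7 and -0.91 points (-3.32 to 1.74) for Lbx1. For Pax7 the direction turned to 6.63 points (-0.65 to 13.6) after thinning to 4000 UMIs, and with no doublets removed it was 0.12 points (-4.66 to 5.11). The thinned share of Eya1 fell by 12.1 points (-15.53 to -8.70), from 14.9% to 2.80%, although its full shares were 26.2% and 17.8%. Six4 had thinned shares of 12.1% and 5.09%, Eya2 of 7.73% and 2.04%, and Pax3 of 3.16% and 1.02%. Their differences were -7.04, -5.70 and -2.15 points, each with an interval below 0.

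Muscle-like cells fell into 4 clusters at each age, 2 with under 100 CPM of Mymk and 2 with more. Mymk encodes myomaker, a membrane protein of fusing myoblasts, and its presence marks differentiating cells. The Mymk-poor clusters held 439 of 621 muscle-like cells (70.7%) at the earlier age and 312 of 400 (78.0%) at the later age. Pax7 was at 161 CPM in the Mymk-poor and 2.53 CPM in the Mymk-rich cells at E12.5, a log2 ratio of rich over poor of -5.99 (-9.04 to -4.12). At E15.5 it was at 144 and 5.46 CPM, a ratio of -4.72 (-6.04 to -3.67). Eya1 was at 110 and 30.4 CPM at the earlier age and at 17.7 and 6.25 CPM at the later age, with ratios of -1.85 (-2.53 to -1.24) and -1.51 (-2.76 to -0.46). Lbx1 had smaller ratios of -1.41 (-2.61 to -0.38) and -0.93 (-1.79 to -0.17). Pax3 was at 22.4 and 7.60 CPM at the earlier age, and at the later age its 20 UMIs were all in Mymk-poor cells.

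Six4 had its highest level within muscle in the cluster led by Myog and Mymx, the genes of myogenin and of the fusion factor myomixer, with 111 CPM (82.2 to 147) at the earlier age and 61.1 CPM (45.6 to 80.1) at the later age. Clusters led by sarcomere genes had less, with 31.5 CPM (15.7 to 56.4) at the earlier age and 6.99 CPM (1.44 to 20.4) at the later age. In the 2 Mymk-poor clusters of E15.5 Six4 was at 24.5 and 25.1 CPM. Its log2 ratio of Mymk-rich over Mymk-poor cells was 0.25 (-0.23 to 0.71) at the earlier age and 0.79 (0.30 to 1.26) at the later age. Eya2 had -1.76 (-2.77 to -0.89) at the earlier age and -0.19 (-1.14 to 0.67) at the later age. At E15.5 the highest level of Eya2 was also in the cluster led by Myog and Mymx, at 15.3 CPM (8.13 to 26.1), but its interval overlapped those of the Mymk-poor clusters, at 13.8 and 10.6 CPM.

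**Figure D4:**
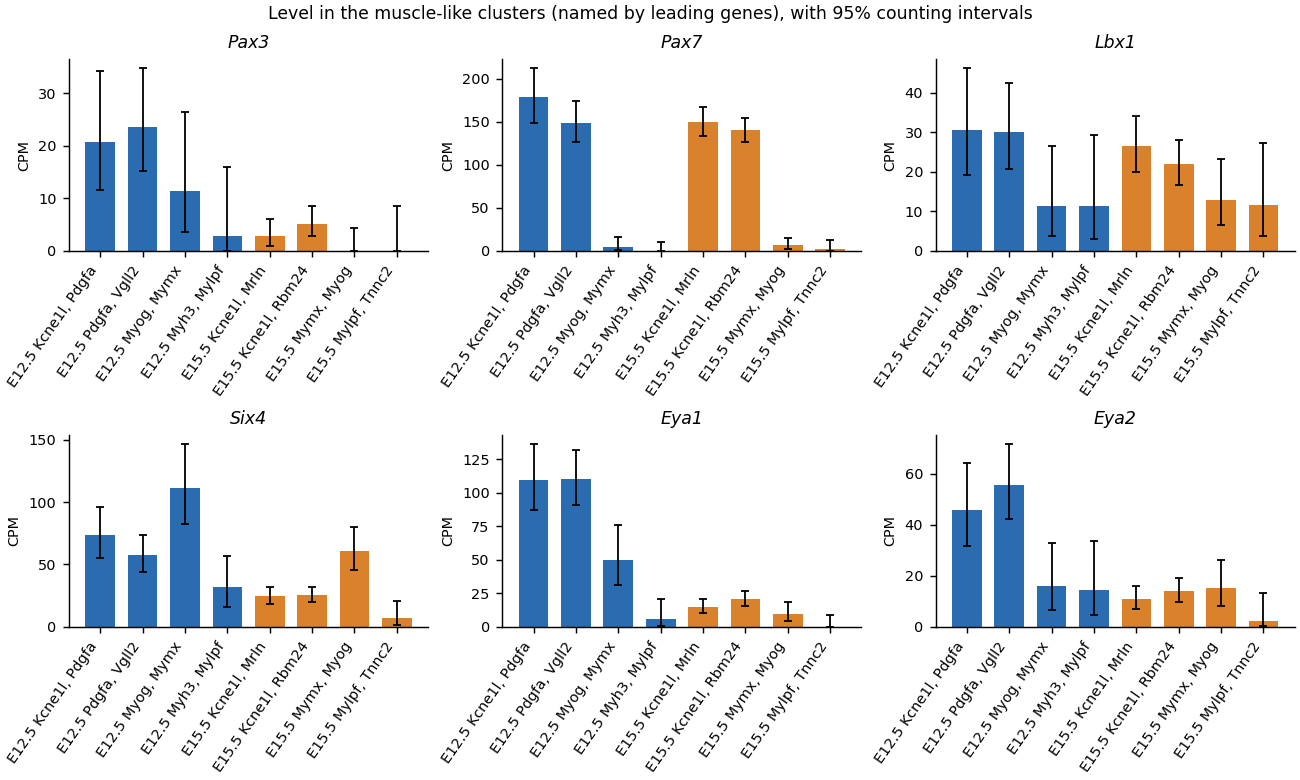
Level of each gene in CPM (vertical axis, from 0) in the 4 muscle-like clusters of each library (horizontal axis, named by 2 of their leading genes), with 95% counting intervals. Pax7 was high in the first 2 clusters of each age and near 0 in the others, and Six4 was highest in the clusters led by Myog or Mymx, at 111 and 61.1 CPM.

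The ratio between the ages was also computed within each state, since the share of Mymk-poor cells differed. In Mymk-poor cells the log2 ratios of E15.5 over E12.5 were -2.46 (-3.31 to -1.65) for Pax3, -2.63 (-3.01 to -2.26) for Eya1, -2.05 (-2.54 to -1.57) for Eya2 and -1.36 (-1.74 to -0.98) for Six4. They were -0.16 (-0.36 to 0.048) for Pax7 and -0.34 (-0.82 to 0.15) for Lbx1, beside a median gene at -0.34. The 4 lower genes were about as low within the Mymk-poor cells as over all muscle-like cells. The Mymk-poor cells were not of the same state at both ages, however. Of the 2 Mymk-poor clusters of E15.5, 1 had Myog at 264 CPM and Mymk at 25.8 CPM, and the other 79.6 and 4.17 CPM. Those of E12.5 had Myog at 70.7 and 93.2 CPM and Mymk at 4.16 and 8.47 CPM. Whether state within the Mymk-poor cells bears on these ratios was not tested. In Mymk-rich cells Eya1 had -2.28 (-3.65 to -1.08), Six4 -0.82 (-1.38 to -0.27) and Eya2 -0.48 (-1.70 to 0.77), the last without a detectable difference at this depth.

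Muscle-like cells were further split by whether they had a UMI of Myog, the myogenin gene of differentiating cells. At E12.5 Pax7 was at 22.1 CPM in the 260 cells with Myog and at 188 CPM in the 361 cells without. At E15.5 it was at 42.9 CPM in 167 cells with Myog and 173 CPM in 233 without. Six4 at E15.5 was at 42.5 CPM with and 17.6 CPM without, a log2 ratio of 1.27 (0.81 to 1.74). At E12.5 its ratio was 0.28 (-0.16 to 0.73). Split by Myf5, the determination factor that is on early in progenitors, the order of Six4 was turned at E15.5, with 15.9 CPM in cells with a Myf5 UMI and 36.2 CPM in those without, a ratio of -1.19 (-1.75 to -0.66).

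In the full counts, Eya1 was higher in the muscle-like cells in which Pax7 was found. In muscle-like cells with a Pax7 UMI, Eya1 was at 140.3 CPM at the earlier age and 19.3 CPM at the later age. In those without it was at 58.5 and 8.19 CPM, which gave log2 ratios of 1.26 (0.87 to 1.66) and 1.24 (0.48 to 2.06). After thinning, 34 of 113 cells with a Pax7 UMI at E12.5 also had Eya1, or 30.1% (21.8 to 39.4), against 11.2% (8.44 to 14.4) of the cells without Pax7. The thinned cells of E15.5 did not show this, but only 11 of 393 had an Eya1 UMI, too few to decide it. Eya1 was found there in 0 of 74 cells with a Pax7 UMI (0 to 4.86%) and in 3.45% (1.73 to 6.09) of those without, with intervals that overlapped. From the shares of both genes alone, 2.07 cells with both would be found. For Six4 the thinned shares at E12.5 were 8.85% (4.33 to 15.7) with and 12.9% (10.0 to 16.4) without Pax7, and the intervals overlapped. Of the 621 muscle-like cells of E12.5, 230 had no UMI of any of the 6 genes, 194 had 1 of them, 127 had 2 and none had all 6. Of the 400 cells of E15.5, 70 had none and 140 had 1.

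Most partner genes of the same network (Six2, Eya3, Eya4 and Dach1) were lower at E15.5 as well. Of 6 listed partners, 5 had at least 20 UMIs over both ages in muscle, and 4 of these were at least 2-fold lower at E15.5 with none higher, where 19.0% of all tested genes were lower. Relative to the median gene, 1 of the 5 stayed past 2-fold, Six2 with -1.99, while Eya3, Eya4 and Dach1 were at -0.96, -0.80 and -0.98. Their unshifted median log2 ratio was -1.33, beside -0.37 for all genes. Six2, a homeobox gene related to Six4, was at 40.4 CPM at the earlier age and 7.92 CPM at the later age, a ratio of -2.35 (-2.87 to -1.85). Eya4 was at 112 and 50.1 CPM. Six5, at 7.38 and 6.79 CPM, was the tested gene of this list without such a difference, and Dach2 had too few UMIs. In mesenchyme 5 of 6 were at least 2-fold lower, where 24.3% of genes were, and in cartilage Six2 was higher at E15.5, at 32.4 CPM against 11.0 CPM. Clusters with Gdf5 among their leading genes, named mesenchyme at E12.5 and cartilage at E15.5, were not left out of these values.

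Genes of migration and limb muscle identity were mixed. Of 9 listed, 7 were tested in muscle, 3 were at least 2-fold lower (19.0% of all tested genes were) and none higher, with a median of -0.53. Met, the receptor that migrating precursors need, was at 73.4 CPM (63.3 to 84.7) at the earlier age and 17.1 CPM (14.0 to 20.7) at the later age, a ratio of -2.10. Meox2, a homeobox gene of limb muscle precursors, was at 12.0 and 3.23 CPM, a ratio of -1.90 (-2.79 to -1.04). It was higher in mesenchyme-like cells, at 83.6 and 136 CPM. Msc, the gene of the repressor musculin, was at 159 and 223 CPM, a ratio of 0.49 (0.33 to 0.65). Pitx3 was at 28.0 and 28.8 CPM.

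Genes linked to PAX3 or PAX7 as targets did not move as a group. Of the 5 listed, Met and Dmrt2 were at least 2-fold lower, where 19.0% of all tested genes were, with Dmrt2 at 29.9 and 10.2 CPM. Fgfr4, an FGF receptor of muscle progenitors, was at 65.7 and 107 CPM, a ratio of 0.71 (0.46 to 0.96). Itm2a was at 760 and 1253 CPM, a ratio of 0.72, and Myf5 at 24.5 and 47.0 CPM, a ratio of 0.94 (0.54 to 1.36). Relative to the median gene these 3 were past 2-fold, at 1.08, 1.09 and 1.31. Of the genes of myogenic state, Myh3, an embryonic myosin, was at 921 and 241 CPM. It was the only 1 of 5 past 2-fold, where 23.5% of all tested genes were, with Myf5 beside it relative to the median gene.

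**Figure D5:**
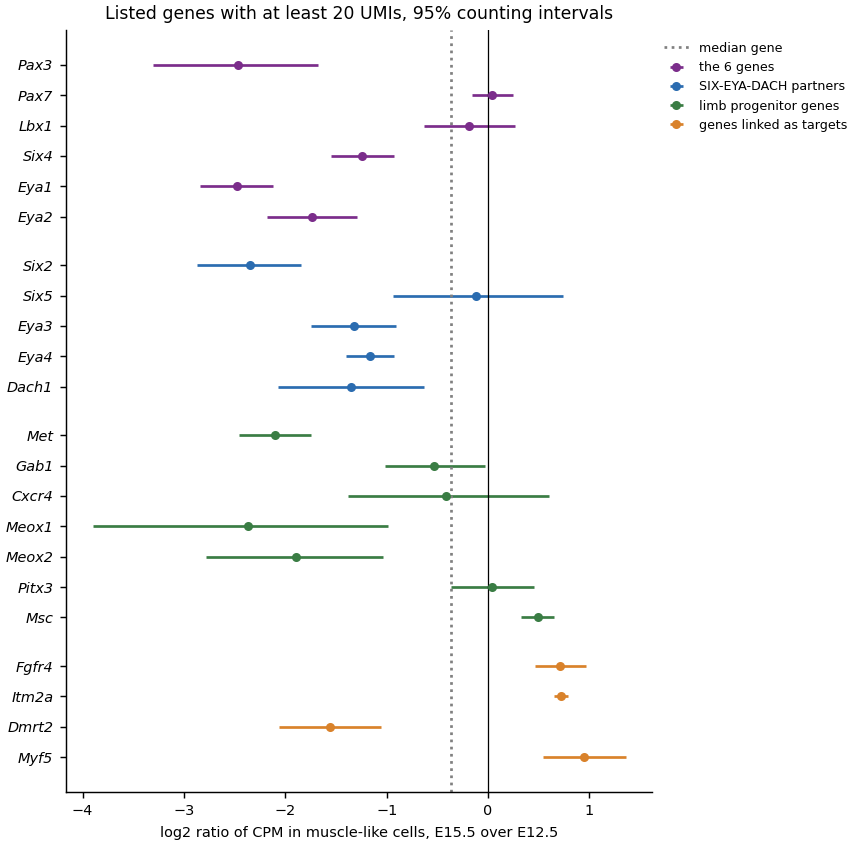
Log2 ratio of CPM at E15.5 over E12.5 in muscle-like cells (horizontal axis) for the 6 genes and for listed genes with at least 20 UMIs over both ages, with 95% counting intervals and the median gene as a dotted line at -0.37. Of the 5 partner genes, 4 lay left of -1, as did Met and Meox2, while Msc, Fgfr4, Itm2a and Myf5 lay right of 0.

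The genes with the most similar pattern were found by Pearson correlation of log2(CPM + 10) over 44 clusters of at least 50 cells from both libraries, among 13637 genes. Clusters of 1 library share its depth and preparation, so these are descriptions. The limit on cells left out the melanocyte-like cluster, where Pax3 was highest, and 2 of the 3 Schwann-like clusters, so that the highest Pax3 level among the clusters used was 23.5 CPM. For Pax7 they were Myf5 (r = 0.97), Msc (0.96) and Gm9947 (0.95), and for Lbx1 Rbm20 (0.93), Fitm1 (0.91) and Fgfr4 (0.91). Pax3 was most like Met (0.81), Fgf9 (0.79) and Cerkl (0.79), and Eya1 was like Pde1c (0.80) and Fgfr4 (0.76). Eya2 had Gm16299 (0.73), Rragd (0.73) and Fgf9 (0.73). Six4 had Hsf2 (0.88) and Miga1 (0.88), neither of them a muscle gene by the lists used here. Among the 6 genes themselves, Pax7 and Lbx1 were most alike (0.88), and Six4 had correlations of 0.16 to 0.49 with the other 5.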

How the data were processed

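The deposited values are raw counts of UMIs for each gene in each barcode, made by the authors with Cell Ranger 4.0.0, and mm10 and Seurat 4.3.0 are also named, per the submitters' processing notes. Libraries were made with the 10x 3-prime v3.1 kit, per the labels' protocols. Cell classes were rebuilt from the counts.

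Cells with at least 500 genes and under 10% mitochondrial UMIs were kept. This removed 670 barcodes from the earlier library and 1674 from the later one. Doublets were scored against simulated ones, and the top 1270 and 190 cells were removed, the share expected at 0.8% per 1000 barcodes. Each library was clustered alone (2000 variable genes, 30 components, 15 neighbours, Leiden resolution 1.0), in Python 3.11.15 with leidenalg 0.10.2, scikit-learn 1.9.0 and scipy 1.17.1. The 6 genes and the partner, migration and target genes other than Myf5 were left out of the variable genes. Genes of myogenic state, among them Myf5, Myog, Mymk and Myh3, were not left out and could shape the clusters. For classes other than mesenchyme, a name needed 3 or more markers that were 2-fold or more higher and found in 10% or more of cells. Of these markers, 1 had to be among the top 10 genes. Where no class had a gene there, 5 or more markers were needed. Mesenchyme was named without these last 2 conditions. The E12.5 cluster led by Gdf5 and Sfrp2 took that name from Prrx1, Pdgfra, Col1a1 and Col3a1, none among its top 10 genes. The naming rule was set after the clusters were seen. Clusters led by markers of 2 classes were split once. Unnamed clusters held 2.32% of the cells early and 7.35% late. The members and lists were chosen with earlier results of these data known.

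UMIs were summed per class and scaled to CPM. Intervals are exact Poisson for CPM, exact Clopper-Pearson for shares, exact conditional for ratios and Newcombe for differences, and floors take 3 counts over the class. Ratios were called at 2-fold among genes with at least 20 UMIs over both sums. Named were the 6 genes, listed genes as examples, and the 3 most similar genes of each member reaching 10 CPM in a cluster. Some genes that these lists or this rule would name are not reported here, and counts over lists leave them out. The script was tested on simulated data.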

Additional observations from a re-analysis of the deposited data

Results flagged for a closer look

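The unnamed clusters of E15.5 entered no comparison between classes or ages. They were among the clusters correlated and in the UMI totals of the kept cells. Pax7 was at 10.7 CPM (7 UMIs) and Six4 at 15.3 CPM (10 UMIs) in them, both above what a count of 0 would allow there. Of the 7 Pax7 UMIs, 6 lay in a cluster of 231 cells with a median of 1319 UMIs that was led by Gm42418, Lars2 and Cox17.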

How the results depend on the processing

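No paired analysis was possible because there was 1 library per age and no replicate numbers. Of 304 values recomputed under the alternatives, 255 stayed within the counting interval of the reported value. The muscle age ratios of Pax3, Six4, Eya1 and Eya2 stayed below 0 under every alternative that gave a value. Classes set from marker UMIs per barcode, with no clustering, moved most values. Of 621 clustered muscle cells of the earlier age, 225 were then still muscle and 67 mesenchyme, and of 400 of the later age 115 were still muscle and 230 mesenchyme. Pax7 muscle over mesenchyme then reversed to -1.07 at E15.5 and was 1.74 at E12.5, with Pax3 at 2.43 and 0.19, Lbx1 at 4.37 and 2.08, Eya1 at 2.03 and 0.50, Six4 at 0.25 and 1.53, and Eya2 at 1.82 at E12.5. The age ratios were then -3.53 for Pax3, -0.81 for Six4 and -0.31 for Eya2. With classes from at least 3 distinct markers, chosen after seeing the data, muscle over mesenchyme was 5.74 for Pax7 at E15.5, and 3.58, 0.35 and 2.48 for Pax3, Six4 and Eya2 at E12.5. In male cells (143 and 65 muscle cells) age ratios were -0.27 for Pax7, 0.27 for Lbx1 and -0.77 for Six4, muscle over mesenchyme at E12.5 was 3.44 for Pax3, 5.08 for Lbx1, -0.30 for Six4, 2.63 for Eya1 and 2.21 for Eya2, and Six4 was 1.83 at E15.5. In female cells Eya1 was 3.89 at E12.5. With median gene scaling the age ratios were 0.41 for Pax7, -0.88 for Six4 and -2.11 for Eya1, and Six4 muscle over mesenchyme was 0.26 and 1.51. With the 6 genes and partners allowed to shape clusters, age ratios were 0.47 for Pax7 and -2.09 for Eya1, and Eya1 muscle over mesenchyme was 3.06 at E12.5. Resolution 2.0 gave 0.36 for the Pax7 age ratio. At E15.5 muscle over mesenchyme was 0.88 for Six4 and 2.44 for Eya1 at resolution 0.5, and 0.87 and 2.39 with joint clustering. The causes were not tested. Thinning to 1000 UMIs gave differences of -6.41 points for Eya1 and -2.58 for Eya2. Thinning to 4000 gave -7.18 for Pax3, 6.63 for Pax7, -10.8 for Six4, -17.8 for Eya1 and -9.89 for Eya2. Without the 20 UMI minimum, 6848 of 18256 genes were past 2-fold, against 2659 of 11302. Pax3 gave no ratio where a class held none of its UMIs. Depth limits Pax3 most, with 20 UMIs in muscle at E15.5.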
